A study of Macaca nemestrina with 15 samples.

Results

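The genes described here are 9 transcripts of platelets and of megakaryocytes, the bone marrow cells that shed platelets: *PPBP*, *PF4*, *CLU*, *SPARC*, *ITGA2B*, *GP9*, *TREML1*, *TUBB1* and *MYL9*. They were chosen by name, as rows of the count table whose gene name equals one of these symbols. All 9 were found among the 28865 genes of the table. All 9 were also among the 12880 features that had enough counts to be tested. The RNA came from peripheral blood mononuclear cells (PBMCs) of 5 female pig-tailed macaques (*Macaca nemestrina*). Each animal was sampled before treatment (pre-treatment), at week 12 and at week 18, which gave 15 libraries. Islatravir (ISL), a nucleoside reverse transcriptase translocation inhibitor, was given orally at 30 mg/kg once a week for 12 weeks. By the labels and the methods, the week 12 samples closed the dosing period and the week 18 samples followed 6 weeks without drug. Every animal received ISL, so a change over time and an effect of ISL cannot be told apart. By the dates in the library names, the later libraries of an animal followed its earliest by 56 or 57 and by 84 days, which is closer than the labelled weeks, and the study's text gives a shorter drug-free interval in another place. The time from the pre-treatment to the week 12 samples and the length of the drug-free interval are therefore both uncertain. The labelled weeks are used below. The 3 animals Z15303, Z15339 and Z15408 share their dates at every time point.

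Platelets have no nucleus and live on RNA packed into them by the megakaryocyte. They are small, adhere readily to leukocytes, and can remain in a mononuclear cell preparation, where their transcripts are read together with those of lymphocytes and monocytes. *PPBP* and *PF4* encode chemokines stored in platelet alpha granules. *CLU*, the chaperone clusterin, and *SPARC*, a collagen-binding matrix protein, are also carried in alpha granules. *ITGA2B* encodes the alpha chain of the fibrinogen receptor. *GP9* encodes a subunit of the receptor for von Willebrand factor, and *TREML1* a receptor of the alpha granule membrane that reaches the surface upon activation. *TUBB1* encodes the beta tubulin of the platelet's marginal band, and *MYL9* the regulatory light chain of non-muscle myosin. In libraries made from all PBMCs, fewer platelets and less RNA per platelet cannot be told apart.

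Each library held 5610597 to 10379572 counts. Levels below are CPM, a count divided by the library's total and multiplied by a fixed constant, after scaling of library sizes, which are not corrected for transcript length and are compared between libraries and not between genes. The 9 genes together took 0.322% to 1.195% of the counts of a library, with a median of 0.629%. *PPBP* alone ranked between the 8th and the 62nd most counted gene. The lowest share was in animal Z15408 at week 18 and the highest in animal Z15303 at week 18.

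The summed level of the 9 genes moved in opposite directions in different animals. It was 7485 CPM pre-treatment, 3333 at week 12 and 5823 at week 18 in Z15228. In Z13076 it was 3827, 8879 and 4648 CPM at the same time points. Thus week 12 was the lowest of the 3 time points in Z15228 and the highest in Z13076, with a week 12 to pre-treatment ratio of 0.445 in the former and 2.32 in the latter. The sum was 6075, 8321 and 7136 CPM in Z15339. It was 8553, 10384 and 12475 CPM in Z15303, and 3914, 3989 and 3171 CPM in Z15408. The 3 libraries of Z15303 exceeded all 3 libraries of Z15408, and the 3 time points overlapped.

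**Figure D1:**
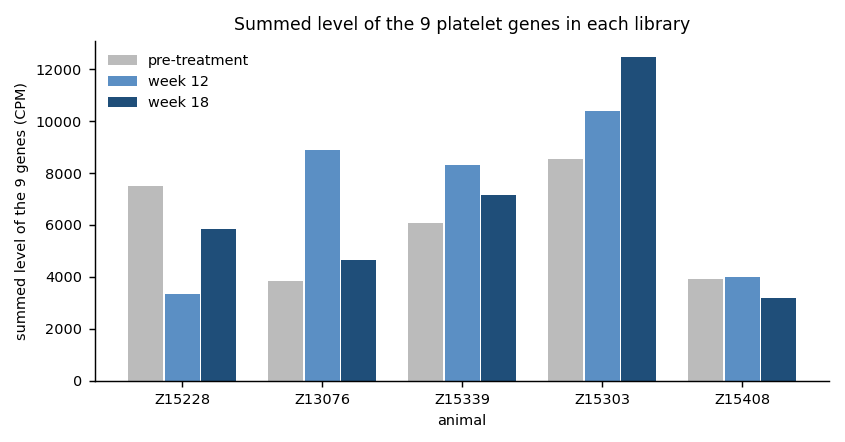
Summed level of the 9 platelet genes in CPM (y axis, from 0) in each of the 15 libraries, grouped by animal (x axis), with 1 bar per time point. The week 12 bar is the lowest in Z15228 (3333 CPM) and the highest in Z13076 (8879 CPM), and Z15303 reaches 12475 CPM at week 18.

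The chemokine *PPBP* was the most counted of the 9 genes. Values are listed throughout for Z15228, Z13076, Z15339, Z15303 and Z15408, in that order. The *PPBP* level was 3531, 1609, 2252, 2889.9 and 2009.9 CPM pre-treatment. At week 12 it was 1518, 3519.8, 3204, 4251 and 1719.9 CPM. At week 18 it was 3014, 1838, 2764, 4635 and 1229 CPM. Z15303 was high at both later time points, Z15228 and Z13076 exchanged places between pre-treatment and week 12, and the groups overlapped. *PF4*, the second chemokine, had levels of 1002, 424, 538, 643 and 338 CPM pre-treatment. Its levels were 431, 719.5, 648, 1015 and 357 CPM at week 12, and 627, 475, 667, 1153 and 307 CPM at week 18. *PF4* was lowest in Z15408 at every time point, and the groups overlapped.

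*CLU* spanned the widest range of the granule genes other than *SPARC*. Its level was 52.1, 52.1, 77.4, 118 and 16.0 CPM pre-treatment. At week 12 it was 18.2, 122, 154, 155 and 20.9 CPM, and at week 18 it was 68.4, 57.1, 96.7, 193 and 21.8 CPM. *CLU* at week 18 was higher than pre-treatment in 5 of 5 animals, although the 2 groups overlapped. A rise in 5 of 5 animals from pre-treatment to week 18 was seen for 3.04% of all features tested. No other platelet gene moved the same way in all 5 animals in any comparison. The share of all features that did so was 5.68% at week 12, 6.54% at week 18 and 5.87% for week 18 vs. week 12.

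*SPARC* stood apart from the other 8 genes because 1 animal held most of its counts. In Z13076 its level was 12.9 CPM pre-treatment, 21.1 CPM at week 12 and 12.4 CPM at week 18, from 102 to 175 counts per library. In the other 4 animals it lay between 0.448 and 4.97 CPM, from 4 to 28 counts per library. The levels of Z13076 did not overlap with those of the other animals. The summed platelet level of Z13076 was not the highest at any time point. Counts of this size in the other 4 animals carry a wide counting error. The widest move among them was in Z15303, from 6 counts at week 12 to 28 counts at week 18.

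The receptor gene *ITGA2B* had levels of 712, 513, 912, 1364 and 530.4 CPM pre-treatment. It had 335, 1547, 1274, 1178 and 570.2 CPM at week 12, and 572, 735, 1036, 1633 and 503 CPM at week 18. The week 12 samples held both the lowest level, in Z15228, and, in Z13076, a level that only Z15303 at week 18 exceeded. *GP9* was measured at 114, 41.2, 94.1, 144 and 24.1 CPM pre-treatment. Its levels at week 12 were 44.0, 70.6, 117, 164 and 40.3 CPM, and at week 18 they were 79.1, 54.1, 96.8, 219 and 31.0 CPM. Z15303 was the highest and Z15408 the lowest at every time point, and the time points overlapped. *TREML1* was measured at 694, 297, 485, 857 and 243 CPM pre-treatment. Its levels at week 12 were 271, 668, 750.0, 1076 and 354 CPM, and at week 18 they were 496, 389, 642, 1347 and 305 CPM. Here too Z15303 was the highest at each time point, and the groups overlapped.

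Among the cytoskeleton genes, *TUBB1* had levels of 1017, 732, 1347, 1717 and 573 CPM pre-treatment. They were 559, 1893, 1646, 1524 and 766 CPM at week 12 and 724, 956, 1415, 2144 and 629 CPM at week 18. Like *ITGA2B*, *TUBB1* had its lowest level in Z15228 at week 12 and was highest among the week 12 libraries in Z13076. *MYL9* levels were 362, 146, 368, 819 and 178 CPM pre-treatment. They were 157, 317, 526, 1019.8 and 159 CPM at week 12 and 239.8, 131, 417, 1145 and 144 CPM at week 18. *MYL9* in Z15303 was above every other animal at each time point, and the 3 groups overlapped.

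**Figure D2:**
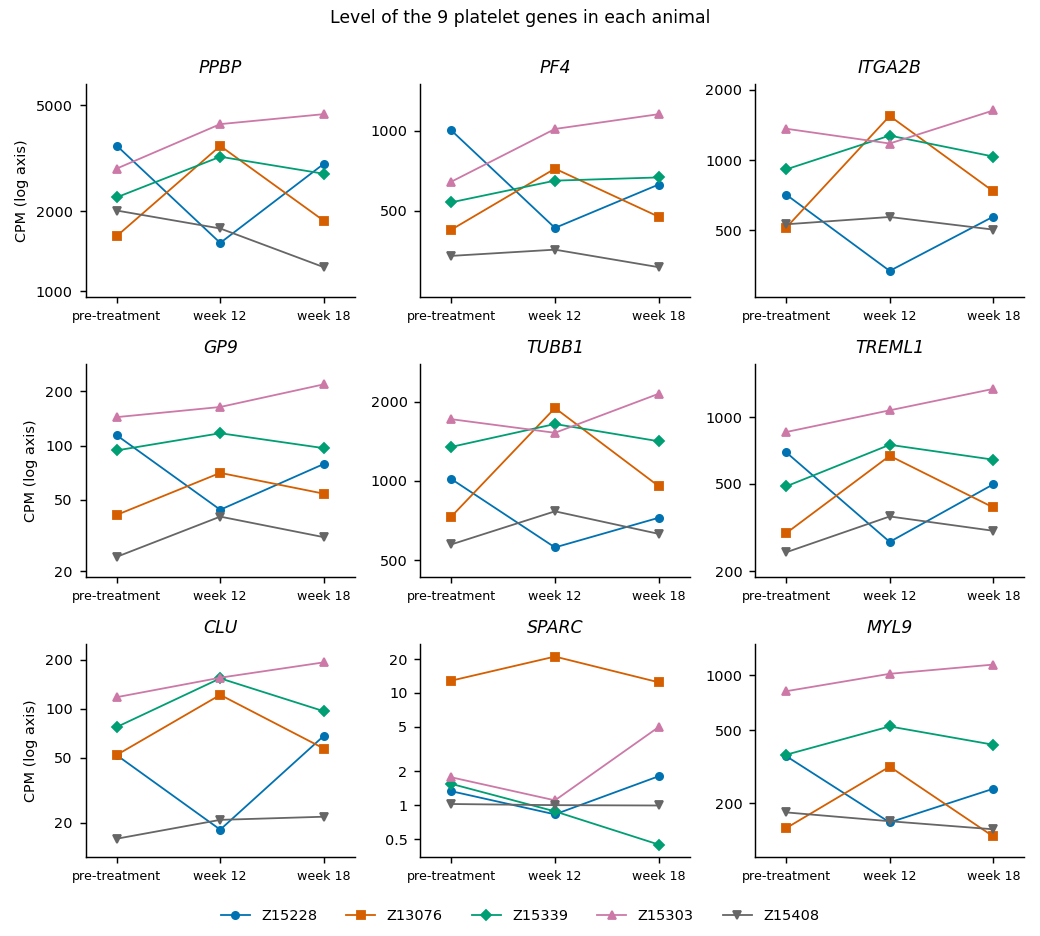
Level of each of the 9 platelet genes in CPM (y axis, logarithmic) at the 3 time points (x axis), with 1 line per animal. All 9 genes dip at week 12 in Z15228 and peak there in Z13076, and *SPARC* lies above the other animals only in Z13076 (12.4 to 21.1 CPM).

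The first comparison asked whether the platelet genes differed between the end of ISL dosing and pre-treatment. None of the 9 passed the test, which was edgeR's quasi-likelihood test on the counts, with p-values adjusted over all 12880 features. The same test called 0% of all features, so the count of 0 among the 9 is also what the background gives. With the animal as a block in the model, 0 of 9 passed against 0.00776% of all features. DESeq2 called 0 of 9, against 0.00483% of all features, and 0 of 9 with the block, against 0.12%. At an unadjusted p under 0.05, each of the 4 fits again gave 0 of 9, beside 1.61% of all features in edgeR and 4.69% with the block. The share of all features at this threshold was not taken for DESeq2, here or in the comparisons below. The fitted log2 fold changes ran from 0.06 for *GP9* to 0.57 for *CLU*, with a median of 0.25, whereas the median over all features was 0.0037. All 9 fitted values were above 0, as were 51% of all features. With the block, the median was 0.18 and 8 of 9 were above 0, with *SPARC* at −0.0098. This shared sign is not 9 separate observations, because the levels of the genes other than *SPARC* were correlated over the libraries.

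The confidence intervals were wide. *PPBP* changed by 0.21 ± 0.34 (log2 fold change ± SE, n = 5 per time point, edgeR adjusted p = 1.00), a fold of 1.16 with a 95% confidence interval of 0.700 to 1.91. For *CLU*, the fold at week 12 was 1.49 with an interval of 0.579 to 3.81. For *SPARC* the interval reached from 0.287 to 6.28. The block narrowed these intervals. On the log2 scale, that of *PPBP* ran from −0.34 to 0.70 with the block and from −0.52 to 0.93 without it. The median SE of the 9 genes was 0.45, against 0.21 over all features tested, and 0.24 against 0.16 with the block.

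By animal, the week 12 change of the 9 genes had a median of 1.13 on the log2 scale in Z13076, with 9 of 9 genes higher. In Z15228 the median was −1.22, with 0 of 9 higher. The medians were 0.48 in Z15339, 0.32 in Z15303 and 0.10 in Z15408. These values show opposite moves of similar size in 2 animals and smaller positive medians in the other 3. Without Z13076 the fitted median of the 9 genes at week 12 turned from 0.25 to −0.04. The median change over all features lay between −0.03 and 0.01 in every animal. Over the 3 animals with shared dates the mean of the medians was 0.30, and over the remaining 2 it was −0.04, compared with an SD of 0.86 over all 5.

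The second comparison, week 18 vs. pre-treatment, asked whether the genes differed after the drug-free interval, which is 6 weeks by the labels. Again 0 of 9 passed edgeR's test, where 0% of all features passed, and 0 of 9 passed with the block, against 0.00776%. DESeq2 called 0 of 9 without the block (background 0%) and 0 of 9 with it (background 0.241%). None had an unadjusted p under 0.05 in any of these fits, beside 1.69% of all features in edgeR and 5.85% with the block. The median log2 fold change was 0.15, all 9 values were above 0 (background 50.2%), and the fitted values ran from 0.12 for *TUBB1* to 0.46 for *CLU*. With the block, the median was 0.075 and 8 of 9 were above 0, with *MYL9* at −0.10. *CLU*, which was higher in 5 of 5 animals, changed by 0.46 ± 0.64 (SE, edgeR adjusted p = 1.00), or by 0.42 ± 0.28 with the block (edgeR adjusted p = 0.895). Its individual log2 changes were 0.39, 0.13, 0.32, 0.71 and 0.44. All 5 were above 0, and the difference passed the test in neither fit. For *PPBP* the fold was 1.10, with an interval of 0.664 to 1.81. By animal, the median change of the 9 genes was 0.65 in Z15303, with 9 of 9 higher, and −0.48 in Z15228, with 2 of 9 higher. It was 0.19 in Z13076, 0.18 in Z15339 and −0.04 in Z15408. Without Z15303 the fitted median turned from 0.15 to −0.060. The mean of these medians was 0.27 over the 3 animals with shared dates and −0.15 over the remaining 2.

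The third comparison set week 18 against week 12, and so shares its libraries with the first 2. None of the 9 genes passed edgeR's test, where 0% of all features passed, and none passed with the block, where the background was also 0%. DESeq2 called 0 of 9 both without the block (background 0%) and with it (background 0.0386%), and 0 of 9 had an unadjusted p under 0.05 in each fit, beside 0.505% of all features in edgeR and 2.17% with the block. The median log2 fold change was −0.08, with 3 of 9 above 0 (background 48.9%), and the values ran from −0.28 for *SPARC* to 0.14 for *GP9*. With the block, the median was −0.07 and 1 of 9 was above 0, with *SPARC* at 0.21 and *GP9* at −0.00091. All 9 genes were lower at week 18 than at week 12 in Z13076, with a median change of −0.94. All 9 were higher in Z15228, with a median of 0.84, and in Z15303, with a median of 0.32. The medians were −0.28 in Z15339 and −0.22 in Z15408. The fitted median turned from −0.08 to 0.16 without Z13076 and to 0.011 without Z15339. In no comparison did the levels of any of the 9 genes separate the time points. The share of all features whose groups did not overlap was 0.28% at week 12, 0.334% at week 18 and 0.101% for week 18 vs. week 12.

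**Figure D3:**
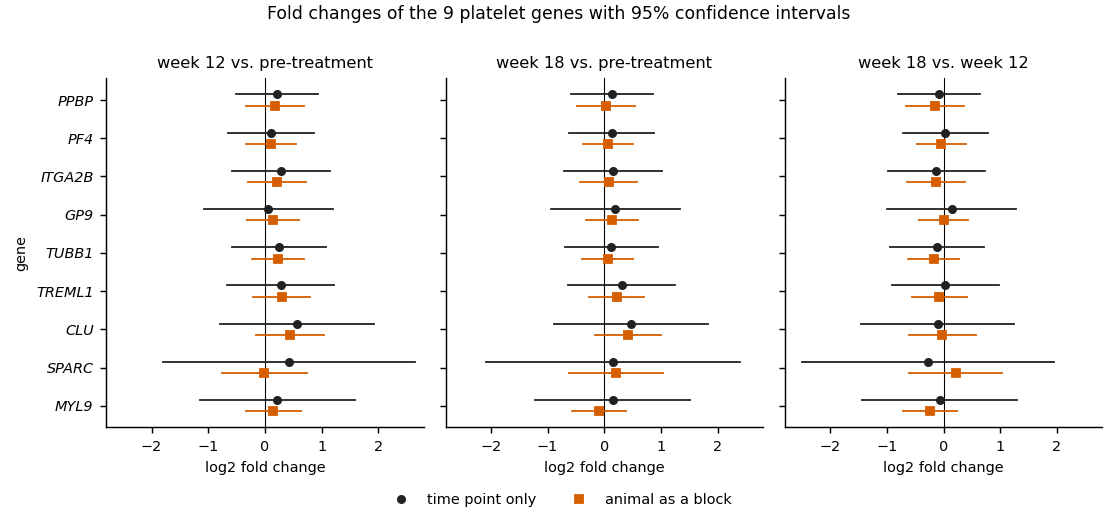
Fitted log2 fold change (x axis) of each of the 9 genes (y axis) in the 3 comparisons, with 95% confidence intervals as lines, from edgeR with the time point only (circles) and with the animal as a block (squares). Every interval crosses 0, and those with the block are narrower.

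Differences between animals were larger than those between time points for each of the 9 genes. Of the spread of log2 CPM over the 15 libraries, the share between animals ran from 52.8% for *PPBP* to 88.5% for *SPARC*. Its median was 73.7%, against 51.9% over all features tested. The share between time points had a median of 1.18% over the 9 genes and 6.23% over all features. *MYL9* (87.5%), *GP9* (85.4%) and *CLU* (81.2%) followed *SPARC* in the share between animals. The 9 genes also varied more than most. The SD of log2 CPM over the 15 libraries had a median of 0.76, against 0.32 over all features, and 5 of 9 genes lay above the 90th percentile of 0.75.

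A test of the animal term, chosen after the data had been seen, gave an adjusted p under 0.05 for 9 of 9 genes, against 30.9% of all features (edgeR's quasi-likelihood test with time point and animal as terms). The call of *PPBP* was marginal, with an edgeR adjusted p of 0.0499. It was lost when library sizes were not scaled (edgeR adjusted p = 0.0741) and in DESeq2's likelihood ratio test (adjusted p = 0.138). For *MYL9* the edgeR adjusted p was 9e-06, and for *GP9* it was 4.3e-05. Without Z15303 the calls of *PPBP*, *ITGA2B* and *TREML1* were lost, and 6 of 9 remained. Without Z15408 the calls of *PPBP*, *PF4* and *ITGA2B* were lost, and 6 of 9 remained. The share over all features was not taken with an animal left out. The call of *PPBP* was also lost without Z15339 (edgeR adjusted p = 0.0580). The call of *SPARC* was lost without Z13076 (edgeR adjusted p = 0.201), and its share between animals was then 39.1%. The share was 33.3% for *PPBP* and 45.5% for *TREML1* without Z15303, and 39.7% for *PF4* without Z15408.

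**Figure D4:**
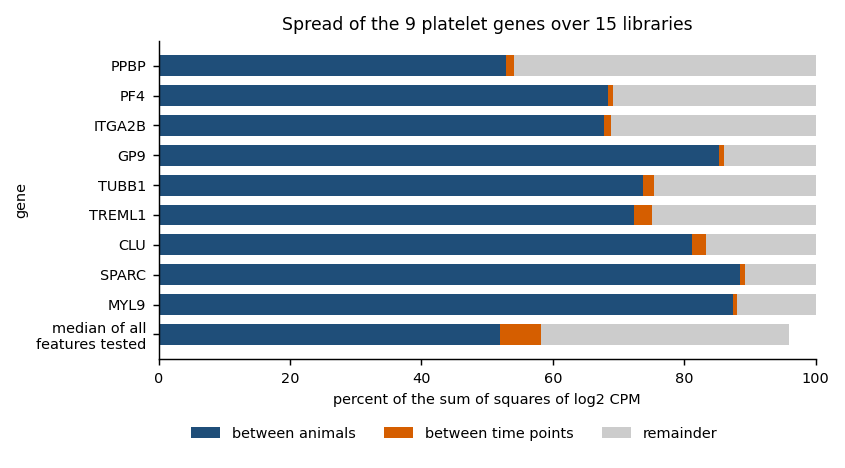
Percent of the sum of squares of log2 CPM (x axis) that lies between animals, between time points and in the remainder, for each of the 9 genes (y axis) and, in the last row, as the median of each share over all features tested, which need not add up to 100%. Between-animal shares run from 52.8% (*PPBP*) to 88.5% (*SPARC*), and no time point share exceeds 2.82%.

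The balance among the platelet genes differed by animal for some genes and not clearly for others. Each level was expressed as a percent of the *PPBP* level in the same library, which removes what the genes of a library share. All these ratios have *PPBP* as denominator, so a *PPBP* level particular to an animal moves them together. Because transcript lengths are not corrected for, such percents are compared between animals only. *PF4* kept the steadiest ratio, between 16.8% and 28.4% of *PPBP* in all 15 libraries, with an SD of 0.21 on the log2 scale both over all libraries and within animals. *MYL9*, in contrast, was 28.3%, 24.0% and 24.7% of *PPBP* at the 3 time points in Z15303, and 9.07%, 9.00% and 7.15% in Z13076. The 3 values of Z15303 lay above all others and those of Z15339, at 16.3%, 16.4% and 15.1%, came next without overlap. The SD of the *MYL9* ratio was 0.64 over all libraries and 0.17 within animals, both on the log2 scale. *ITGA2B* was 20.2%, 22.1% and 19.0% of *PPBP* in Z15228. In Z15339 it was 40.5%, 39.8% and 37.5%. The *ITGA2B* ratio of Z15228 was below that of every library of the other animals, the lowest of which was 26.4%. The mean *ITGA2B* level itself was alike in Z15228 and Z15408, at 539.5 and 534.6 CPM. The mean *PPBP* level was 2688 and 1653 CPM in these animals. *TUBB1* had a mean of 29.9% in Z15228 and 54.1% in Z15339, with an SD of 0.41 over all libraries and 0.30 within animals. *GP9* and *CLU* were lowest relative to *PPBP* in Z15408, at means of 2.02% and 1.26%, and highest in Z15303, at 4.52% and 3.97%. *TREML1* ranged from a mean of 18.0% in Z15228 to 28.0% in Z15303, with an SD of 0.33 over all libraries and 0.26 within animals. Its lowest and a high value, 12.1% and 24.8%, came from the same animal, Z15408. For *SPARC* the mean was 0.692% in Z13076 and 0.0376% in Z15339.

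**Figure D5:**
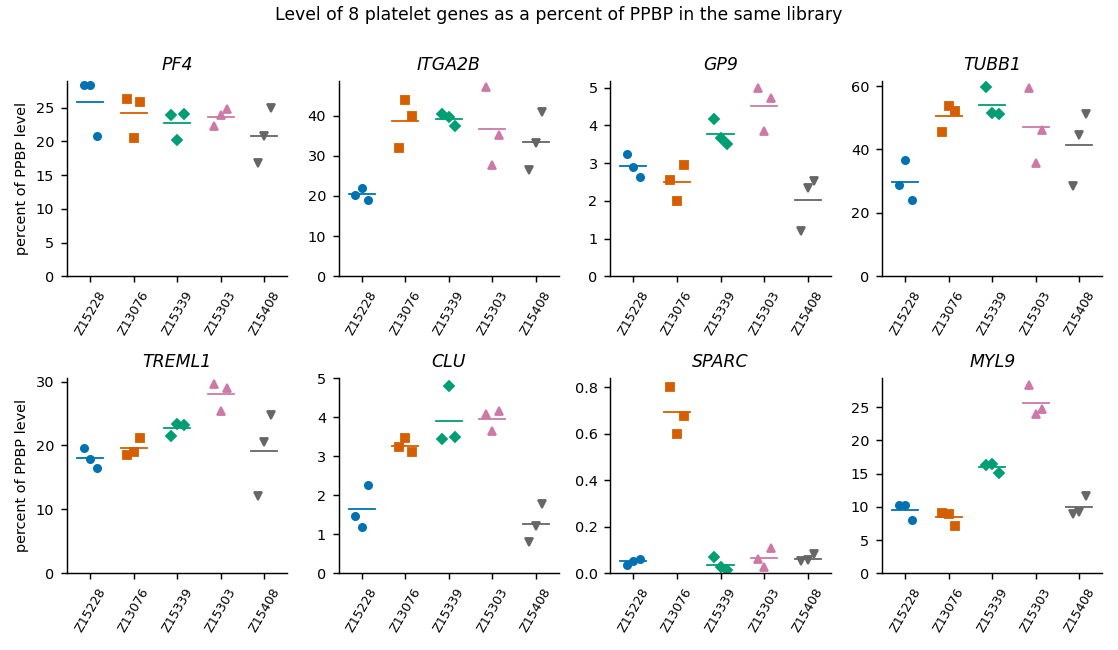
Level of 8 platelet genes as a percent of the *PPBP* level in the same library (y axis, from 0), by animal (x axis). Points are the 3 libraries of an animal, from left to right pre-treatment, week 12 and week 18, and lines are their mean, which is 25.7% for *MYL9* in Z15303 and 8.41% in Z13076.

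Apart from *SPARC*, the platelet genes rose and fell together over the libraries. The 28 pairs among the other 8 genes had a Pearson r of log2 CPM between 0.719 and 0.979, with a median of 0.872 over 15 libraries. *ITGA2B* and *TUBB1* were the closest pair. The 8 pairs with *SPARC* had an r between −0.137 and 0.265. These are descriptions of 15 libraries from 5 animals, which are not independent samples, and no p is given. Of the 12871 other features tested, 221 (1.72%) had an r above 0.8 with the mean of the 9 genes. Among features named by a gene symbol, the 10 closest were *DDAH2* (r = 0.979), *MPIG6B* (0.979), *CDKN2D* (0.979), *GP1BB* (0.970), *SMIM1* (0.966), *CCND3* (0.966), *CAVIN2* (0.965), *FAM210B* (0.961), *NARF* (0.958) and *NRGN* (0.95). *MPIG6B* and *GP1BB* encode platelet receptors, and *CAVIN2* is a caveolar coat protein abundant in platelets. After the mean of each animal was removed, 4 of these 10 stayed among the 10 closest named by a symbol: *DDAH2*, *NRGN*, *MPIG6B* and *GP1BB*. The features closest to *SPARC* were led by the T-cell receptor segment *TRBV28* (r = 0.916), whose mean was 17.8 CPM in Z13076 and whose highest level elsewhere was 6.03 CPM.

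Another 68 symbols of platelet and megakaryocyte genes were listed by role, and 60 of them were tested. No row carried the symbols *GP5*, *ITGB3*, *LY6G6F*, *SDPR* and *PDLIM1*, and *F2RL2*, *PDGFA* and *SH3BGRL2* had too few counts. By edgeR, with or without the block, 0 of 60 passed in any comparison, where 0% of all features passed without the block and 0.00776%, 0.00776% and 0% with it. The 14 surface receptors had a median of 0.17 in log2 fold change between pre-treatment and week 12, with 13 of 14 fitted values above 0 (51% of all features). At week 18 it was 11 of 14 (50.2% of all features), and for week 18 vs. week 12 it was 4 of 14 (48.9%). These signs are not 14 separate observations, because the levels of the receptors were correlated with those of the 9 genes (median r of 0.75). The most counted receptor genes were *CD9*, *MPIG6B*, *ESAM* and *GP1BB*. The 12 granule and secreted proteins, led by *SRGN*, *TGFB1*, *F13A1* and *PF4V1*, had a median of 0.10, with 10 of 12 above 0. The 24 cytoskeleton and signalling genes, led by *FLNA*, *NRGN*, *CAVIN2* and *BIN2*, had a median of 0.08, with 18 of 24 above 0. The 10 genes of the megakaryocyte list, mostly transcription factors and led by *NFE2*, *FLI1*, *LYL1* and *RUNX1*, had a median of 0.11, with 7 of 10 above 0. At an unadjusted p under 0.05, edgeR gave 0, 1 and 0 of 60 in the 3 comparisons, and 1, 3 and 0 with the block. The shares over all features were 1.61%, 1.69% and 0.505%, and 4.69%, 5.85% and 2.17% with the block. The 4 medians at week 18 lay between 0.06 and 0.12. Of the 60 genes, 28 had an r above 0.8 with the mean of the 9, and 44 had an adjusted p under 0.05 for the animal term in edgeR's test, beside 30.9% of all features. The actin crosslinker *FLNA* and the transcription factor *FLI1*, which leukocytes also express, had an r of −0.40 and −0.31.

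DESeq2 with the block called 1 of the 60, at week 18 vs. pre-treatment, against 0.241% of all features, and it is named here because it passed. This was *GUCY1B1*, a subunit of the soluble guanylate cyclase through which nitric oxide acts on platelets. Its levels were 73.4, 60.4, 104, 139 and 73.4 CPM pre-treatment. They were 47.1, 54.2, 89.9, 91.3 and 73.4 CPM at week 12 and 47.8, 44.2, 61.3, 90.8 and 60.1 CPM at week 18. From pre-treatment to week 18, 6.54% of all features tested moved the same way in 5 of 5 animals. *GUCY1B1* did so too and was lower at week 18 in 5 of 5 animals, although the groups overlapped. The change was −0.57 ± 0.25 (SE, edgeR adjusted p = 1.00) and −0.55 ± 0.11 with the block (edgeR adjusted p = 0.0890), whereas DESeq2 with the block gave an adjusted p of 0.00748 and without it 1.00. The r of *GUCY1B1* with the mean of the 9 platelet genes was 0.46, and 0.14 after the mean of each animal was removed. In the same fit, DESeq2 with the block also called 6 of 6 B-cell markers at week 18, and 6 of 6 at week 12, whereas edgeR called 0 of 6 with or without the block. Their median log2 fold change at week 18 was −0.97 in edgeR without the block, and their part in the *GUCY1B1* difference was not tested.

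Markers of other cells that a PBMC preparation can hold were set beside the platelet sum. Over the 15 libraries, the log2 of the summed CPM of a list had an r with the log2 platelet sum of 0.12 for red cells, −0.06 for neutrophils, −0.42 for monocytes, 0.02 for B-cells and 0.26 for T-cells. Summed levels ran from 46.8 to 880 CPM for the 7 red cell markers, and from 197 to 617 CPM for the 8 neutrophil markers. Those of the 7 monocyte markers ran from 1916 to 5140 CPM. For the other platelet lists, r was 0.94 for surface receptors, 0.96 for granule proteins, 0.71 for cytoskeleton and signalling genes and 0.86 for the megakaryocyte list. *CLU*, *SPARC* and *MYL9* are also made by cells of vessel walls and stroma. Of the 7 endothelial markers, *CDH5*, *KDR*, *EMCN* and *ROBO4* had too few counts to be tested. The endothelial sum had an r of 0.81, and nearly all of it was *CLDN5* (r = 0.85 with the mean of the 9), which lay between 125 and 439.8 CPM. The other endothelial markers tested, *TEK* and *ERG*, had means of 1.11 and 1.01 CPM and an r of 0.37 and −0.24. The endothelial r therefore rests on *CLDN5* alone, and its source was not tested. Of the 8 fibroblast and smooth muscle markers, 7 had too few counts to be tested, among them *COL1A1*, *ACTA2* and *TAGLN*. The sum of this list ran from 92.2 to 291 CPM with an r of −0.50, and nearly all of it was *PDGFRB*, with a mean of 203 CPM.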

How the data were processed

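RNA-seq libraries of PBMCs were made by the authors with SMART-Seq v4 and Nextera XT, a kit that does not mark strand, and aligned with STAR (2.7.9a, per the labels' processing notes). The deposited values are raw counts of reads per gene, without normalization. The authors' reference was the *M. nemestrina* genome of Ensembl release 95. The strand setting of the counting was not given in the sources used here, so overlapping genes may share reads. Tests used R 4.3.3, edgeR 4.0.16 and DESeq2 1.42.0. Genes were kept by filterByExpr (minimum count 10), libraries scaled by TMM, and edgeR's quasi-likelihood test was fitted to the 15 libraries by time point alone, with Benjamini-Hochberg adjustment and a threshold of 0.05. The SE was taken as the size of the log2 fold change over the root of the F statistic. Log2 CPM used a prior count of 2. The animal entered as a block in an alternative fit. The block rests on the labels, where a subject name marks the same animal, and deviations from the time point means had a mean r of 0.551 (0.351 to 0.683) in the same animal. Animals are biological replicates, with 1 library per animal and time point. Named genes are the 9 members, the 4 most counted genes of each platelet list, and, among features named by a symbol, the 10 with the highest r with the mean of the members. *GUCY1B1*, *CLDN5* and *TRBV28* were named after their values were seen. The members and lists were chosen with earlier results of these data known. The pipeline was tested on simulated data. The alternatives were no or other scaling, no filter, a minimum count of 20, DESeq2, the block, and leaving out each animal in turn.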

Additional observations from a re-analysis of the deposited data

Results flagged for a closer look

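In 57 groups of 5 values, the highest or lowest value was compared with its nearest neighbour by Dixon's test, and 5 groups held a value that stood apart. By chance about 1 in 20 independent groups would. These groups share animals, libraries and correlated genes, so the count of 5 cannot be judged against that share. The *SPARC* level pre-treatment was 12.9 CPM in Z13076, and the next value was 1.78 CPM. At week 12 the *SPARC* level was 21.1 CPM in Z13076, and the next was 1.11 CPM. The *MYL9* level at week 18 was 1145 CPM in Z15303, and the next was 417 CPM. The log2 change of *GP9* from pre-treatment to week 12 was −1.37 in Z15228, and the nearest value was 0.19. The log2 change of *TREML1* from pre-treatment to week 18 was −0.48 in Z15228, and the nearest value was 0.32.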

How the results depend on the processing

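The count of platelet genes called was 0 in each comparison under every alternative run. These were other scaling, no filter, a minimum count of 20, DESeq2, the animal as a block, and each animal left out with and without the block. With a minimum count of 20, *SPARC* had too few counts to be tested, so that run did not cover all 9 genes. In the main fit, the block and DESeq2, at most 0.241% of all features passed, so 0 of 9 is near that background. No such share was taken for the other alternatives. The median log2 fold change of the platelet genes tested was less stable. This median ran from −0.077 to 0.51 at week 12, from −0.060 to 0.29 at week 18 and from −0.31 to 0.16 for week 18 vs. week 12. It changed sign only where 1 animal was left out. Mean CPM moved by less than 1 SD over the animals in 81 of 81 cases, a limit that could hardly be passed. The SD was wide (759 CPM around a mean of 2458 for *PPBP* pre-treatment), whereas the TMM factors ran only from 0.939 to 1.11. A median also always lies within 1 SD of its mean. Of 456 refitted log2 fold changes of single genes, none past the threshold, 77 changed sign, and the cause was not tested. With the animal as a replicate block in edgeR and in DESeq2, *SPARC* at week 12 became −0.0098 and −0.12, and *MYL9* at week 18 became −0.0953 and −0.092. For week 18 vs. week 12, the block gave −0.041 and −0.042 for *PF4*, −0.00091 and −0.0098 for *GP9*, −0.074 and −0.077 for *TREML1*, and 0.21 and 0.31 for *SPARC*. The block changed no call of the 9 genes.

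Leaving out each animal in turn, in both fits, the log2 fold change at week 12 ran from −0.087 to 0.54 for *PPBP*, −0.085 to 0.50 for *PF4*, −0.16 to 0.53 for *ITGA2B*, −0.049 to 0.51 for *GP9*, −0.077 to 0.51 for *TUBB1*, −0.58 to 0.50 for *SPARC* and −0.13 to 0.48 for *MYL9*. At week 18 it ran from −0.13 to 0.27 for *PPBP*, −0.14 to 0.43 for *PF4*, −0.00084 to 0.24 for *ITGA2B*, −0.060 to 0.40 for *GP9*, −0.0082 to 0.24 for *TUBB1*, −0.21 to 0.49 for *SPARC* and −0.24 to 0.29 for *MYL9*. For week 18 vs. week 12 it ran from −0.37 to 0.12 for *PPBP*, −0.14 to 0.17 for *PF4*, −0.39 to 0.16 for *ITGA2B*, −0.15 to 0.27 for *GP9*, −0.39 to 0.13 for *TUBB1*, −0.23 to 0.19 for *TREML1*, −0.37 to 0.28 for *CLU*, −0.59 to 1.06 for *SPARC* and −0.40 to 0.065 for *MYL9*. *CLU* and *TREML1* stayed above 0 at week 12 and at week 18. The number of platelet genes that differed between animals ran from 6 to 9 when an animal was left out, and the share over all features was not taken there. The share of spread between animals moved in 14 of 54 refits. Depth limits *SPARC* most, with 4 to 28 counts per library outside Z13076.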
